A study of Mus musculus with 42 samples.

Results

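The metallothioneins are small cysteine-rich proteins that bind zinc and copper, and the mouse genome carries 4 such genes, Mt1, Mt2, Mt3 and Mt4. Their levels were followed in wounded skin of diabetic mice that had been given topical IL-22-Fc, VEGF, PDGF or a control protein. The genes were found by symbol in the table that pairs probe sets with genes, where each of the 4 had 1 probe set, out of 17928 probe sets with a single symbol and 20672 in all. The study hybridised RNA from mouse skin to 42 Affymetrix arrays, 1 array per sample, and asked how each protein changed gene expression in slowly healing wounds.

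The wounded animals were db/db mice, which lack a working leptin receptor and become obese and diabetic, and all of them were females of 10 to 12 weeks per the methods, chosen for high blood glucose. Each received a full-thickness wound 6 mm across, and a ring of skin 2 mm wide around it was taken for RNA. In the 24 h groups a single topical dose was followed by harvest after 24 h, with 4 control, 5 IL-22-Fc, 5 VEGF and 5 PDGF arrays. In the day 7 groups doses were given on days 0, 2, 4 and 6 and skin was taken on day 7, with 5 control, 5 IL-22-Fc, 5 VEGF and 3 PDGF arrays. IL-22-Fc is interleukin 22, a cytokine that acts on epithelial cells, joined to an antibody Fc part. VEGF drives the growth of blood vessels, and PDGF is a growth factor for mesenchymal cells. The control protein is an antibody against ragweed in the labels and a control Fc protein in the methods. Doses differ between sources: 50 ug for PDGF in all of them, 20 ug in the labels and 50 ug in the methods for VEGF, and either 20 or 50 ug for IL-22-Fc. The strain is given as C57BL/6 in the labels and as BKS db/db in the methods. A further 5 arrays came from untreated skin of day 0, for which the labels give neither a genotype nor a wound. Their titles follow another number series than the wound arrays, so a separate run and the absence of a wound cannot be told apart.

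Mt1 and Mt2 are made in most tissues, where zinc and other metals switch them on through the transcription factor MTF-1, which binds metal response elements in their promoters. Glucocorticoids, inflammatory cytokines acting through STAT3 and oxidative stress are also known inducers. Mt3 is best known from the brain. Mt4 is made by stratified squamous epithelia, including the differentiating layers of the epidermis. The skin contains zinc, and zinc is needed for wound repair.

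The 4 genes lie next to each other on chromosome 8 on the plus strand, in the order Mt4, Mt3, Mt2, Mt1. The 250 bases before the start that RefSeq lists (build GRCm38.p6) are shown for the 3 genes whose levels moved most, with matches to the core of the metal response element in capitals. Letters searched were TGCACNC and TGCGCNC on both strands, and overlapping matches count as one.
Mt4, chr8:94136954-94137203, plus strand: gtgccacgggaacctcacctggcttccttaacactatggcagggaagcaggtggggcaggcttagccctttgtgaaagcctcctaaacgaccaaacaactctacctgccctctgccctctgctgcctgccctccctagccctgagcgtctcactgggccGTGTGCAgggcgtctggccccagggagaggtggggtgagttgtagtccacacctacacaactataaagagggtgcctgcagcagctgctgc
Mt2, chr8:94172368-94172617, plus strand: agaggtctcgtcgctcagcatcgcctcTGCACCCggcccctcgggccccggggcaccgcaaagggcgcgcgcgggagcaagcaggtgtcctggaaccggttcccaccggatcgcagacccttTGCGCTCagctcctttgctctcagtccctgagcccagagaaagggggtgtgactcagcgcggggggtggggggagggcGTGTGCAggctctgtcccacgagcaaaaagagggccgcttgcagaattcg
Mt1, chr8:94178839-94179088, plus strand: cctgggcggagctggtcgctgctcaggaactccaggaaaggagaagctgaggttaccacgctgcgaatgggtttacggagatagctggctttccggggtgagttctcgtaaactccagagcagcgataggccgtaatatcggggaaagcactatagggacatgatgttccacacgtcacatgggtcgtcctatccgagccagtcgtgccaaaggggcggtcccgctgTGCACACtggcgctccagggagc
The Mt2 window held 3 separate matches, the Mt1 window 1, the Mt4 window 1 and the Mt3 window 0. At least 1 match was present in 21.4% of the 32817 promoter windows of the same length in the table, and 3 or more in 0.77%. When the 50 bases after the listed start were added, Mt2 held 4 matches, Mt1 3, Mt4 1 and Mt3 1. Of all windows of that length 25.7% held at least 1 match, 1.31% held 3 or more and 0.3% held 4 or more. RefSeq lists 2 transcripts of Mt1, so which bases count as upstream depends on the start that is chosen. The antioxidant response element core TGACNNNGC was found in the Mt2 window, and in 10.2% of all windows. The STAT core TTCNNNGAA was found in none of the 4 windows, and in 7.0% of all of them. TATAAA was found before Mt4 from base -30 to -25 and in 12.4% of windows. These are matches of letters and were not tested as binding sites.

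**Figure D1:**
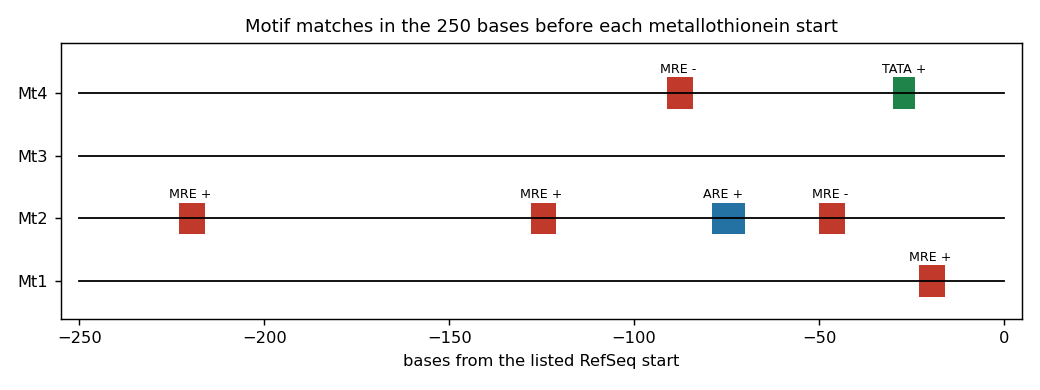
Matches to 3 motif cores along the 250 bases before the listed start of each gene, with distance from the start in bases on the x axis and the strand of the match beside its name. Mt2 carries 3 metal response element (MRE) matches and 1 antioxidant response element (ARE) match, Mt4 has an MRE and a TATA match, and Mt3 has none.

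Levels are given as log2 of the deposited RMA intensity (RMA, a summary and normalization method for Affymetrix arrays), and a difference of 1 on this scale is a doubling. Differences were tested with limma, with p-values adjusted by the Benjamini-Hochberg method over all 20672 probe sets and called at an adjusted p under 0.05. Over the 42 arrays Mt1 ranged from 11.29 to 13.88 and Mt2 from 11.12 to 13.47. Mt3 ranged only from 5.61 to 6.69, a range of 1.09. Mt4 ranged from 4.86 to 12.19, a range of 7.33 on the log2 scale. The highest value on each array, of any probe set, lay between 14.0 and 14.52, so Mt1 and Mt2 at 24 h stood near the top of the scale. The deposited table holds no detection calls, and whether Mt3 was above background was not tested. The Mt1 probe set carries the suffix that Affymetrix uses for probes matching more than 1 transcript, and its specificity against Mt2 was not tested. In bulk skin, fewer cells of a type and less RNA per cell cannot be told apart.

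**Figure D2:**
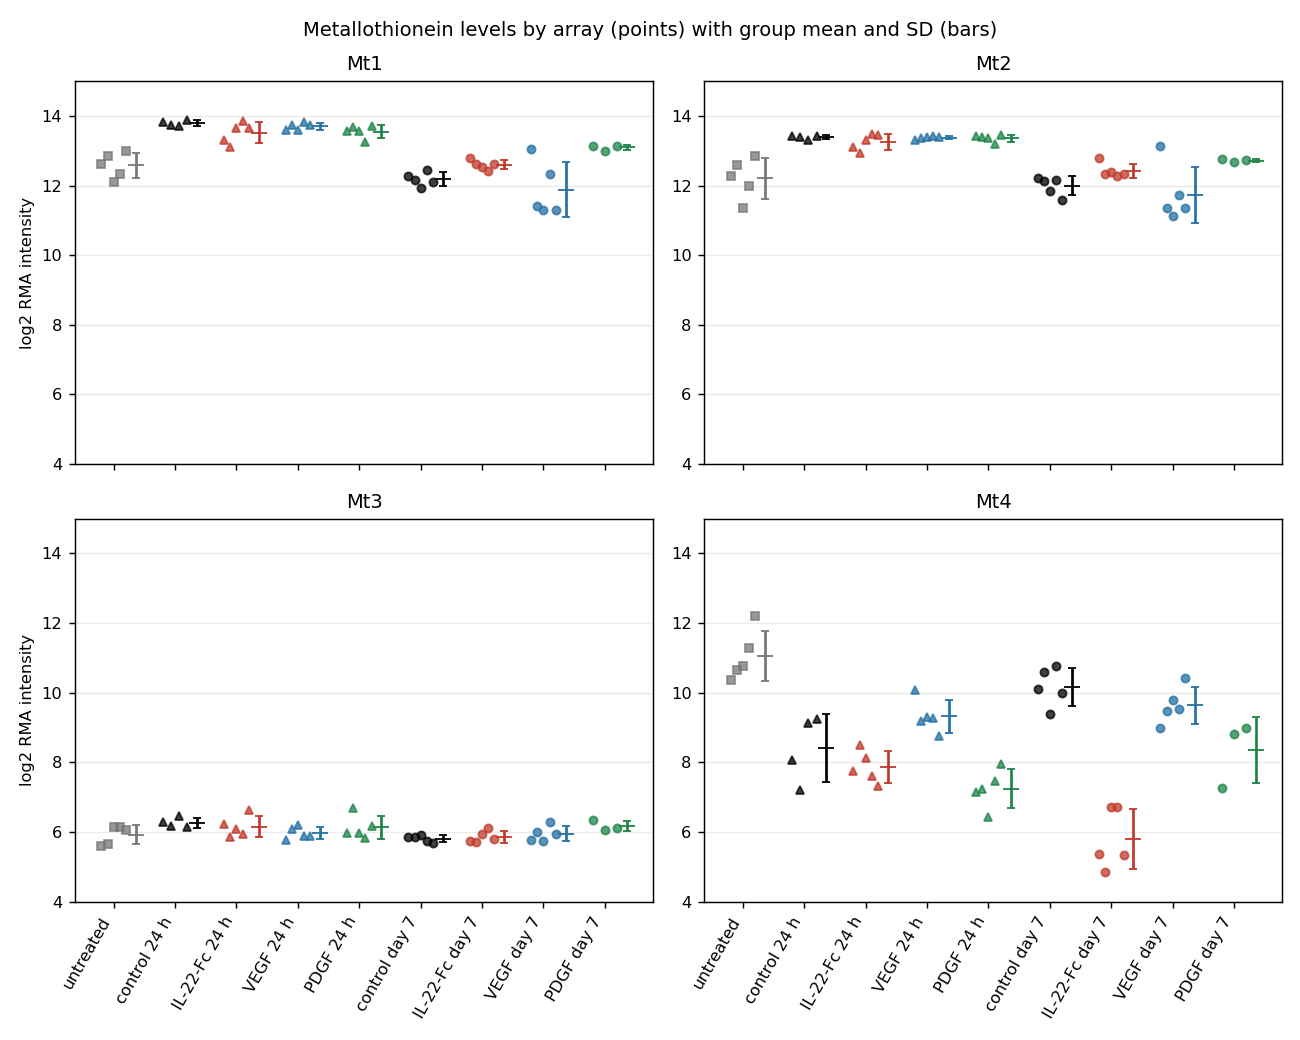
Log2 RMA intensity of each metallothionein (y axis) on every array (points) in the 9 groups (x axis), with the group mean and SD as bars; squares are untreated skin, triangles 24 h and circles day 7. Mt1 and Mt2 are high at 24 h in all 4 wound groups, and Mt3 stays between 5.61 and 6.69. The mean of Mt4 is lowest in the day 7 IL-22-Fc group, whose arrays overlap those of PDGF at 24 h.

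In control wounds at 24 h, Mt1 and Mt2 were higher and Mt4 was lower than in untreated skin. On the 5 untreated arrays the Mt1 level was 12.62, 12.85, 12.11, 12.32 and 12.98, and on the 4 control arrays at 24 h it was 13.83, 13.75, 13.70 and 13.88. No control value lay within the untreated range. The log2 difference was 1.21 (standard error, SE, 0.22, 2.32-fold, adjusted p = 2.5e-05 from limma). Mt2 was measured at 12.27, 12.60, 11.34, 11.97 and 12.86 in untreated skin and at 13.43, 13.40, 13.31 and 13.43 in the 24 h controls. Here too the groups did not overlap, and the untreated arrays were spread far more widely (SD 0.59) than the wounded ones (SD 0.06). The Mt2 difference was 1.18 (SE 0.24, 2.27-fold, adjusted p = 0.00016 from limma). Mt4 moved the other way. Its level was 10.36, 10.64, 10.76, 11.27 and 12.19 in untreated skin and 8.07, 7.20, 9.12 and 9.25 in the 24 h controls, again without overlap. Mt4 fell by 2.64 on the log2 scale (SE 0.43, 6.22-fold, adjusted p = 4.7e-06 from limma), the 9th lowest difference of all probe sets. Mt3 was at 5.92 ± 0.27 (SD, n = 5) in untreated skin and 6.26 ± 0.14 (SD, n = 4) in the 24 h controls, a difference of 0.34 that did not pass (adjusted p = 0.066 from limma), but did after median centring (0.37, adjusted p = 0.044), and without the third, the fourth or the fifth untreated array (up to 0.40, adjusted p from 0.042 to 0.046). Of the 4 genes 2 were higher and 1 was lower, where 39.5% of all probe sets were called in this comparison. By an exact two-sided permutation test Mt1 and Mt4 each reached p = 0.00794, the smallest these groups allow, and Mt2 gave 0.0159 (0.0476 for Mt1 and Mt4 and 0.0564 for Mt2 after adjustment over the 60 such tests computed).

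The untreated array with the highest Mt4 level, 12.19, was also the one on which hair follicle markers stood out. The summed level of the 7 hair follicle markers was 14.90 there, while the median of the 5 untreated arrays was 6.89. The same array had the lowest mean level of the 5' control probe sets of Gapdh and Actb, which are read as a sign of RNA quality, at 11.72 against 12.85 to 13.13 on the other 4 untreated arrays. Without that array Mt4 at 24 h fell by 2.35 (adjusted p = 1.9e-05 from limma), and the differences were 1.31 for Mt1 and 1.35 for Mt2. For day 7 controls against untreated skin, the Mt4 difference was -0.60 without it (adjusted p = 0.25). All 6 suprabasal keratinocyte markers were lower in the 24 h controls, and their summed log2 level lay between 15.02 and 15.09 there against 15.19 to 15.76 in untreated skin. The median difference of the 6 was -0.51, while the median over all probe sets was 0.03. All 5 neutrophil markers measured rose, with a median difference of 4.49, in a comparison where 39.5% of all probe sets were called. The part of these cell types in the metallothionein differences was not tested.

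By day 7 the control wounds had come back towards the untreated levels. The Mt1 values of 12.29, 12.15, 11.94, 12.45 and 12.09 all lay below the 24 h controls, with a log2 difference of -1.61 between day 7 and 24 h (SE 0.22, adjusted p = 3.6e-07 from limma). Mt2, at 12.22, 12.13, 11.83, 12.17 and 11.58, was lower by a difference of -1.40 (SE 0.24, adjusted p = 2.2e-05). Mt4, at 10.09, 10.58, 9.38, 10.78 and 9.98, was higher than at 24 h on every array, and rose by 1.75 (SE 0.43, adjusted p = 0.0015 from limma). Mt3 fell from 6.26 ± 0.14 (SD, n = 4) to 5.81 ± 0.10 (SD, n = 5), a small difference of -0.45 (adjusted p = 0.018 from limma) that no longer passed when 1 control array of 24 h, the third, was left out (-0.39, adjusted p = 0.078). All 4 genes were called in this comparison, in which 30.1% of all probe sets were. Against untreated skin, day 7 control wounds showed no call by limma among the 4 genes, where 36.8% of probe sets were called. The differences were -0.39 for Mt1 (adjusted p = 0.14), -0.22 for Mt2 (0.48), -0.11 for Mt3 (0.57) and -0.88 for Mt4 (0.083), and 1 of the 4, Mt4, had an unadjusted p below 0.05, as did 44.9% of probe sets. The 95% interval of the Mt4 difference ran from -1.70 to -0.07.

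**Figure D3:**
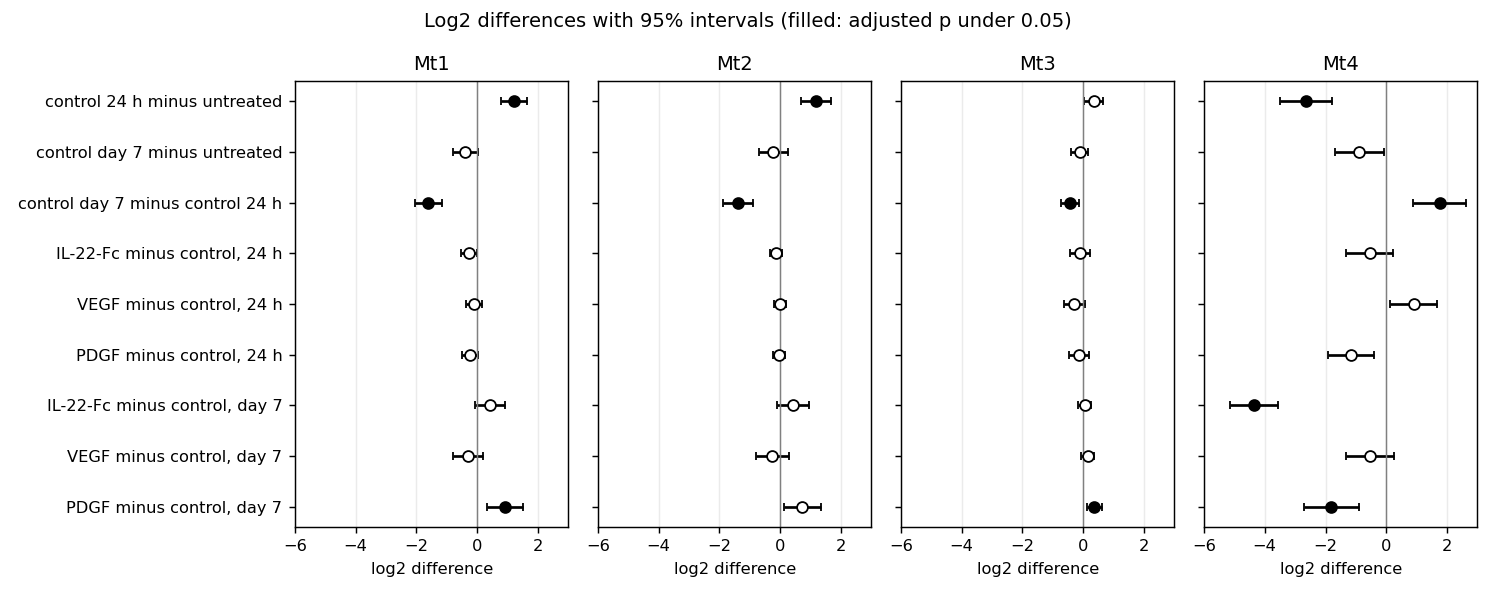
Log2 differences (x axis) of the 4 genes in 9 comparisons (y axis) with 95% intervals from limma; filled points passed an adjusted p of 0.05. Mt4 has its lowest value, -4.36, for IL-22-Fc against control at day 7, and none of the 4 genes passed in the 3 treatment comparisons at 24 h.

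At 24 h none of the 3 proteins moved a metallothionein past the threshold against the control. The 3 treatments were each compared with the same 4 control arrays. With IL-22-Fc, Mt4 was measured at 7.76, 8.49, 8.12, 7.61 and 7.31, within the range of the controls, and the difference was -0.55 (95% interval -1.32 to 0.22, adjusted p = 0.78 from limma). With VEGF, Mt4 was 10.07, 9.17, 9.29, 9.28 and 8.75, higher on average by 0.91 (95% interval 0.13 to 1.68, adjusted p = 0.49). With PDGF it was 7.14, 7.24, 6.44, 7.45 and 7.96, lower on average by a difference of -1.16 (95% interval -1.93 to -0.39, adjusted p = 0.12). That PDGF difference passed when the second control array, the lowest for Mt4, was left out (-1.57, adjusted p = 0.0091) and with array weights (-1.39, adjusted p = 0.012). Mt1 remained within 13.11 and 13.88 on all 19 arrays of 24 h, and its differences from the control were -0.28, -0.09 and -0.24 with IL-22-Fc, VEGF and PDGF. Those of Mt2 were -0.15, -0.02 and -0.03. Those of Mt3 were -0.11, -0.29 and -0.13. The share of all probe sets called at 24 h was small, at 0.111% with IL-22-Fc, 0.135% with VEGF and 1.89% with PDGF. At an unadjusted p under 0.05 limma gave 1 of the 4 genes in each comparison, Mt1 with IL-22-Fc and Mt4 with VEGF and PDGF, where it gave 7.01%, 9.39% and 15.7% of all probe sets. The methods' t-test gave 0 with IL-22-Fc, 1 with VEGF (Mt3) and 1 with PDGF (Mt1), and 4.94%, 9.62% and 13.8% of all probe sets.

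Set directly against each other at 24 h, VEGF and PDGF differed in Mt4. All 5 VEGF arrays lay above all 5 PDGF arrays, and the difference was 2.07 (SE 0.35, 4.20-fold, adjusted p = 0.0007 from limma), where 9.15% of probe sets were called. IL-22-Fc was lower than VEGF in Mt4 by a difference of -1.46 that did not pass (adjusted p = 0.063 from limma), although the arrays of both groups did not overlap, and it passed without the second IL-22-Fc array (-1.62, adjusted p = 0.043). IL-22-Fc and PDGF differed by 0.61 (adjusted p = 0.34). Called shares of all probe sets were 0.687% and 7.49% in these pairs. The summed suprabasal marker level was 15.22 to 15.46 with VEGF, 14.84 to 15.03 with PDGF and 14.87 to 15.29 with IL-22-Fc, so VEGF and PDGF did not overlap in it either.

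The mean Mt4 level with IL-22-Fc at day 7 was lower than that of any other group. The 5 arrays read 5.35, 4.86, 6.72, 6.71 and 5.34, and the lowest control array of day 7 read 9.38. The difference of -4.36 (95% interval -5.16 to -3.57, 20.6-fold) was the lowest of all 20672 probe sets in this comparison. The IL-22-Fc readings lay near the array medians of 5.63 to 5.72, and whether they were above background was not tested, so the fold and the rank depend on the low end of the scale. Mt4 was the only one of the 4 genes called, where 5.45% of probe sets were called and 2.64% were lower. The exact two-sided permutation test gave p = 0.00794, the smallest possible (0.0476 adjusted over the 60 tests). In the order of the 9 group means of Mt4, from untreated skin at 11.04 down to day 7 IL-22-Fc at 5.80, the step from PDGF at 24 h (7.25 ± 0.55, SD, n = 5) to day 7 IL-22-Fc (5.80 ± 0.86, SD, n = 5) was the only one between neighbours that passed (1.45, adjusted p = 0.0048 from limma, with 30.8% of probe sets called). Arrays of those groups overlapped, with the third 24 h PDGF array at 6.44, below the day 7 IL-22-Fc readings of 6.72 and 6.71. The other 7 steps were between 0.05 and 0.91 and did not pass. The IL-22-Fc effect on Mt4 at day 7 exceeded that at 24 h by -3.81 (SE 0.57, adjusted p = 8.2e-05 from limma for the difference of differences), a contrast in which 1.69% of probe sets were called.

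Mt1 and Mt2 showed small positive differences with IL-22-Fc at day 7. Mt1 read 12.78, 12.61, 12.54, 12.43 and 12.63, of which 4 lay above every control array. Mt2 read 12.78, 12.32, 12.38, 12.27 and 12.33, all above the highest control value of 12.22. The share of all probe sets whose arrays did not overlap was not counted in any comparison of the report. The differences were 0.41 for Mt1 (95% interval -0.09 to 0.92, adjusted p = 0.38 from limma) and 0.43 for Mt2 (95% interval -0.11 to 0.96, adjusted p = 0.40), and neither passed. The spread that limma used came from all 18 arrays of day 7, the variable VEGF arrays included. With only the IL-22-Fc and control arrays in the fit, Mt1 passed (0.41, adjusted p = 0.029). By the exact two-sided permutation test p was 0.0159 for Mt1 and 0.00794 for Mt2 (0.0564 and 0.0476 adjusted). The methods' t-test gave 3 of the 4 genes (Mt1, Mt2 and Mt4) at an unadjusted p under 0.05, with 17.7% of all probe sets, and 1, Mt4, after Benjamini-Hochberg adjustment. Mt3 differed by 0.05 (adjusted p = 0.85 from limma).

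Beside the fall of Mt4 with IL-22-Fc, the suprabasal markers overlapped between the groups. Their summed level was 15.45 to 15.62 with IL-22-Fc and 15.43 to 15.73 in the day 7 controls. Of the 6 markers 1 rose, 2 fell and 3 did not pass, where 5.45% of all probe sets were called and 2.64% were lower. Among 30 cornified envelope genes, the structural proteins of the dead outer layer of the epidermis, 14 were lower and 7 higher. The summed level of these genes overlapped as well, at 16.56 to 16.71 with IL-22-Fc and 16.52 to 16.8 in the day 7 controls. Loricrin (Lor), a main envelope protein, fell by 2.44 (adjusted p = 4.5e-11 from limma), the late envelope protein Lce1m fell by 3.84 and the keratin Krt77 fell by 3.59. Median differences were -0.28 for the 30 genes and 0.02 for the suprabasal markers, and the median over all probe sets was near 0, at -0.003. Of the neutrophil markers 3 of 5 rose. Their part in the Mt4 difference was not tested.

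**Figure D4:**
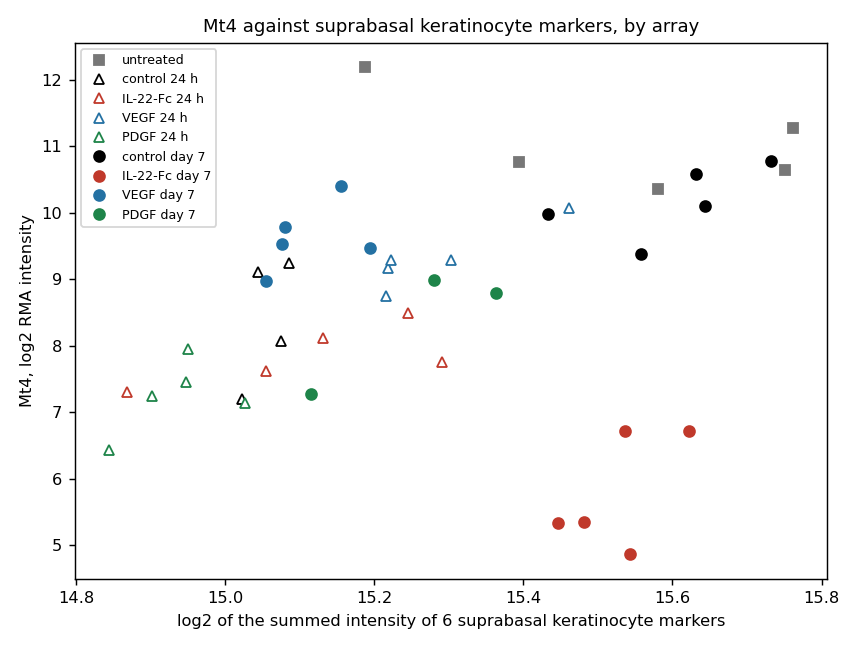
Mt4 level on each array (y axis) against the log2 of the summed intensity of 6 suprabasal keratinocyte markers (x axis), by group. The 5 day 7 IL-22-Fc arrays lie at 4.86 to 6.72 for Mt4 with suprabasal levels of 15.45 to 15.62, beside control day 7 arrays at 9.38 to 10.78.

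With VEGF at day 7 no metallothionein passed, and the result for Mt1 and Mt2 depended on 1 array. Mt1 read 13.06, 11.42, 11.29, 12.34 and 11.30, and Mt2 read 13.13, 11.34, 11.12, 11.72 and 11.34. The first array was the highest of day 7 for Mt2, while 3 of the others gave the lowest Mt1 readings of all 42 arrays. The differences from the control were -0.30 for Mt1 (95% interval -0.80 to 0.20, adjusted p = 0.49 from limma) and -0.26 for Mt2 (95% interval -0.79 to 0.28, adjusted p = 0.59). Without the first array they became -0.60 (adjusted p = 0.017) and -0.61 (adjusted p = 0.0043). Mt4 was 8.98, 9.47, 9.78, 9.53 and 10.41, a difference of -0.53 (95% interval -1.32 to 0.26, adjusted p = 0.43), and Mt3 differed by 0.14. Of all probe sets 14.7% were called. At an unadjusted p under 0.05 neither limma nor the methods' t-test gave any of the 4 genes, while they gave 25.7% and 23% of all probe sets. All 6 suprabasal markers were lower with VEGF, with a summed level of 15.06 to 15.19.

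With PDGF at day 7, 3 of the 4 genes passed, in a comparison where 34.9% of all probe sets did. Mt1 read 13.14, 13.00 and 13.14, above all 5 controls, and was higher by 0.91 (SE 0.28, 1.88-fold, adjusted p = 0.014 from limma). Mt2 read 12.76, 12.66 and 12.72, also above all controls, and its difference of 0.73 (95% interval 0.11 to 1.34) did not pass (adjusted p = 0.062). Mt3 was slightly higher, at 6.33, 6.05 and 6.12 against 5.68 to 5.91 in the controls (0.36, adjusted p = 0.024). Mt4 read 7.27, 8.80 and 8.99, all below the lowest control, and fell by 1.81 (SE 0.44, 3.50-fold, adjusted p = 0.0026). For each of the 4 genes the exact two-sided permutation test gave p = 0.0179, the smallest that 3 against 5 arrays allow (0.0564 adjusted). The share of all probe sets that reach this value was not counted. The methods' t-test gave all 4 genes at an unadjusted p under 0.05, with 39.5% of all probe sets, and all 4 after Benjamini-Hochberg adjustment. Without the first PDGF array the Mt4 difference was -1.27 (adjusted p = 0.042), that of Mt3 0.28 (adjusted p = 0.15) and that of Mt1 0.89 (adjusted p = 0.0502). The PDGF effect on Mt1 was larger at day 7 than at 24 h by 1.15 (SE 0.31, adjusted p = 0.0041 from limma, but 0.32 with the covariate described next), and for the other 3 genes the difference between times did not pass, while 32.3% of probe sets did. Without the second 24 h PDGF array that of Mt3 did (0.63, adjusted p = 0.0085). For VEGF it passed for none of the 4 (8.85% of probe sets), and 2 of them, Mt3 and Mt4, had an unadjusted p below 0.05 by limma, as did 21.3% of probe sets. Without the first day 7 VEGF array Mt2 passed (-0.59, adjusted p = 0.021).

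Among the day 7 arrays, the 3 PDGF arrays also had the lowest readings of the 5' control probe sets for Gapdh and Actb. Their mean was 12.07 (range 11.92 to 12.18) against 13.09 (range 12.95 to 13.18) in the day 7 controls, without overlap. With this level as a covariate the PDGF differences were 1.78 for Mt1 (adjusted p = 0.33), 0.53 for Mt3 (adjusted p = 0.55) and -1.57 for Mt4 (adjusted p = 0.64 from limma). PDGF and the 5' level cannot be told apart at day 7. Of the suprabasal markers 3 of 6 were lower with PDGF and none higher, where 34.9% of all probe sets were called. Their summed level was 15.11 to 15.36. The part of either in the metallothionein differences was not tested.

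The treatments also differed from each other at day 7. Mt4 was lower with IL-22-Fc than with VEGF (-3.84, SE 0.38, adjusted p = 2.1e-07 from limma) and than with PDGF (-2.56, SE 0.44, adjusted p = 8.7e-05), and in both cases the arrays did not overlap. It was higher with VEGF than with PDGF (1.28, adjusted p = 0.024), a difference that did not pass without the first PDGF array (0.74, adjusted p = 0.24) or without the fifth VEGF array (1.09, adjusted p = 0.063). Mt1 was lower with VEGF than with PDGF (-1.21, adjusted p = 0.0014) and Mt2 likewise (-0.99, adjusted p = 0.011). In both the arrays overlapped, with the first VEGF array at 13.06 for Mt1 and 13.13 for Mt2. By the exact two-sided permutation test p was 0.0536 for Mt1 and 0.143 for Mt2. Mt1 was higher with IL-22-Fc than with VEGF (0.71, adjusted p = 0.036), although the first VEGF array lay above all IL-22-Fc arrays, and the call was lost on leaving out any of 7 of the 10 arrays. Mt2 differed in that pair by 0.68 without passing (adjusted p = 0.060), and by 1.03 without the first VEGF array (adjusted p = 1.1e-05). Mt3 was lower with IL-22-Fc than with PDGF (-0.31, adjusted p = 0.048), a call lost on leaving out any of 5 of the 8 arrays. Once the 5' level entered the fit, none of these differences from PDGF passed. The percentage of all probe sets called was 22.9% for IL-22-Fc against VEGF, 38.1% for IL-22-Fc against PDGF and 39.7% for VEGF against PDGF. By the study's rule for genes that vary across treatments, an F test at an adjusted p under 0.001 with at least a 2-fold range, Mt4 passed at day 7, as did 10.4% of all probe sets. Mt1, Mt2 and Mt3 did not. At 24 h none of the 4 passed that rule, which 0.585% of probe sets met, and the closest was Mt4 (adjusted p = 0.0037 for the F test).

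Mt1 and Mt2 moved together from array to array, more closely than any other pair of the 4 genes. Over the 42 arrays, which share the wound time course, Pearson's r of Mt1 with Mt2 was 0.97, and it was 0.90 for deviations from the group means. The day 7 VEGF arrays spread most widely for both genes (SD 0.79 for Mt1 and 0.81 for Mt2, n = 5), and r was not computed without them. The specificity of the Mt1 probe set against Mt2 was not tested. With Mt4, r was -0.32 for Mt1 and -0.36 for Mt2, and -0.17 and -0.10 within groups. With Mt3, r was 0.39 for Mt1 and 0.34 for Mt2, and -0.01 and -0.09 within groups. In the order of group means Mt1 and Mt2 ran alike, from the 24 h control at 13.79 and 13.39 through the other 24 h groups, day 7 PDGF, day 7 IL-22-Fc, untreated skin and day 7 control to day 7 VEGF at 11.88 and 11.73. No step between neighbours in that order passed for either gene, nor did any for Mt3.

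**Figure D5:**
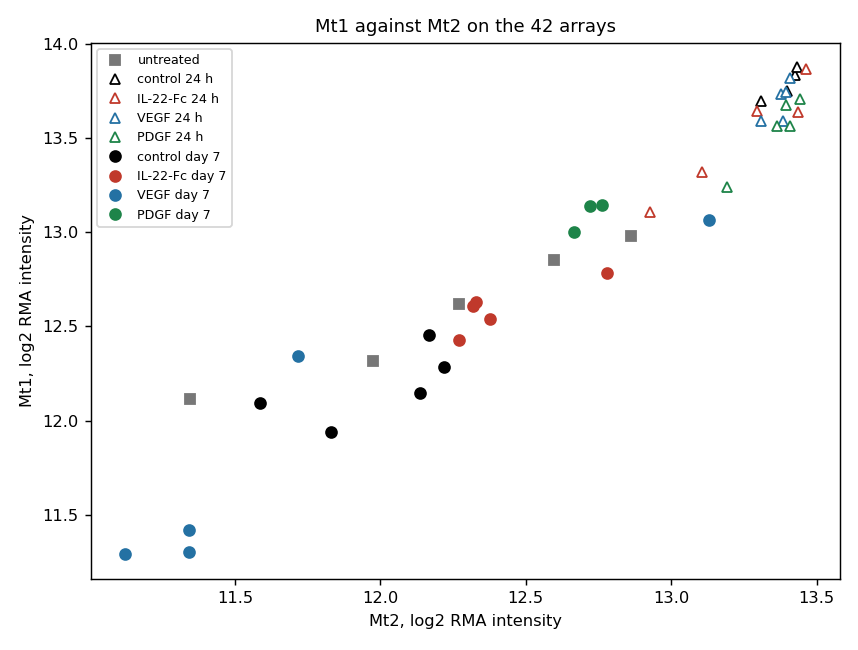
Mt1 (y axis) against Mt2 (x axis), both as log2 RMA intensity, on the 42 arrays by group. The 2 probe sets share no common scale. The arrays form 1 band with r of 0.97, with the 24 h arrays at the upper end and 3 day 7 VEGF arrays at the lower end.

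Beside each other, the genes whose levels most resembled those of Mt1 and Mt2 over the 42 arrays were the immediate early gene Ier2 (r of 0.94 with both) and the ribosome assembly genes Utp20 (0.92 with both) and Heatr1 (0.91 with Mt1, 0.93 with Mt2). Also among the 5 closest were the proteasome subunit Psmd3 (0.92) for Mt1, ahead of Heatr1, and Nop2 (0.92), a nucleolar RNA methyltransferase, for Mt2. Within groups these fell to between 0.57 and 0.76. For Mt4 the closest were Id4, an inhibitor of helix-loop-helix factors (0.82), the carboxypeptidase-like Cpxm2 (0.81), Ramp1, a receptor accessory protein (0.80), Lor (0.80) and the basement membrane collagen Col4a5 (0.80), with 0.31 to 0.64 within groups. For Mt3 the closest were the repressor Cic (0.73), the sorting protein Pacs2 (0.72), the small GTPase Rap2a (0.71), the Janus kinase Tyk2 (0.70) and Dennd4b (0.69). These values are descriptions over arrays that share groups and normalization.

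Genes that move or sense the same metals were looked at beside the metallothioneins. In the 24 h controls against untreated skin, where Mt1 and Mt2 rose, 7 of 14 zinc importers were higher and 2 lower, with a median of 0.28 against 0.03 over all probe sets, of which 39.5% were called. Slc39a14, an importer induced by inflammation, rose by 2.67, Slc39a4 by 1.16 and Slc39a1 by 0.68 (adjusted p from limma 1.8e-09, 1e-05 and 2e-10). Of 10 zinc exporters 3 were higher and 2 lower, a share not far from that of all probe sets, and Slc30a1, itself a target of MTF-1, differed by -0.51 without passing (adjusted p = 0.054). Mtf1, the metal sensor, was level at 0.02 (adjusted p = 0.93), and Stat3 rose by 1.23 (adjusted p = 1.9e-11). Of 17 antioxidant and NRF2 target genes 10 were higher and 4 lower, led by the cystine transporter Slc7a11 at 4.14 and glutathione reductase Gsr at 2.29. Of 12 glucocorticoid response genes 2 were higher and 3 lower, again near the 39.5% of all probe sets.

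With IL-22-Fc at day 7, calls were few in the zinc transporter, copper and glucocorticoid lists, as they were among all probe sets. None of 14 zinc importers passed by limma, where 5.45% of all probe sets did, and among 10 exporters Slc30a4, which loads zinc into vesicles, rose by 0.40 (adjusted p = 0.00072). Stat3 rose by 0.49 (adjusted p = 0.004), Slc7a11 by 2.02, and Gpx2, an epithelial glutathione peroxidase, fell by 0.80. No copper handling gene of 14 and no glucocorticoid response gene of 12 passed. With PDGF at day 7, 3 zinc importers were higher and 3 lower, among them Slc39a8 at -2.23 and Slc39a10 at -2.16, and 9 of 14 copper handling genes were lower and 2 higher. The share of all probe sets called was 34.9%, and that of the importers was close to it. The glucocorticoid receptor Nr3c1 was lower with PDGF by a difference of -2.71 (adjusted p = 5.5e-11 from limma). As described above, PDGF and the 5' level cannot be told apart at day 7, and the part of the 5' level in these differences was not tested. With VEGF at day 7, of 10 exporters Slc30a1 was lower, at -0.49 (adjusted p = 0.00017), and Slc30a3 higher, at 0.21 (adjusted p = 0.048). Of 14 zinc importers 2 were lower and none higher, a share near the 14.7% of all probe sets called.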

How the data were processed

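RNA of 42 mouse skin samples was hybridised by the authors to Affymetrix Mouse430V2 arrays. The deposited values are linear intensities, normalized by the authors with RMA and reduced to the probe set of highest variance per gene. Because of that choice only 1 probe set per metallothionein was available here. Log2 of the deposited intensities was taken, with no filter. Group means were compared with limma 3.58.1 (lmFit, contrasts, eBayes) in R 4.3.3, within the arrays of 1 time point for treatments, over all 42 arrays for untreated skin and for control wounds between times, and over the 37 wound arrays for differences between times. Symbols came from the platform annotation: 17928 probe sets had 1, 79 several and 2665 none. Of the genes in the lists, 13 were not measured. The fit was tested on simulated data. The labels do not say that replicates within a group are separate animals, so p-values measure the spread between these samples, and the number of arrays limits precision. A summed level is the log2 of summed intensities of a list. Array medians lay between 5.63 and 5.72, and Y-linked genes, absent from females, read at most 3.78. Named beside the 4 genes are, for each, the 5 with the highest correlation over all arrays, and up to 3 list members of smallest adjusted p with up to 2 that did not pass. The members and lists were chosen with earlier results of these data known. Sequences are from RefSeq.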

Additional observations from a re-analysis of the deposited data

Results flagged for a closer look

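Of 32 sets of array values tested for a single distant array, 1 stood out, and chance gives about 1 in 20. It was the first day 7 IL-22-Fc array for Mt2, which read 12.78 while the nearest of the other 4 read 12.38. The effect of IL-22-Fc on Mt4 differed between the times, by -3.81 on the log2 scale (adjusted p = 8.2e-05 from limma), with -4.36 at day 7 and -0.55 at 24 h. The effect of PDGF on Mt1 also differed, by 1.15 (adjusted p = 0.0041 from limma), with 0.91 at day 7 and -0.24 at 24 h. With the 5' level as a covariate the PDGF difference was 1.21 and did not pass (adjusted p = 0.32).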

How the results depend on the processing

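The 72 differences were recomputed under up to 11 other settings. The fall of Mt4 with IL-22-Fc at day 7 stayed between -4.59 and -4.13 and passed under every one, as did the changes of Mt1, Mt2 and Mt4 in control wounds between untreated skin, 24 h and day 7 that are called in the report. Other settings left 641 values on the same side of the threshold with the same direction, 23 newly passed, 22 no longer passed and 10 turned sign. In the following, adjusted p-values are from limma unless Student's t-test is named, and the cause was not tested. Centring or quantile normalization moved the median of all probe sets by at most 0.04.

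With the 5' level as a covariate, PDGF against control at day 7 no longer passed for Mt1 (1.78), Mt3 (0.53) and Mt4 (-1.57), nor did IL-22-Fc against PDGF for Mt3 (-0.49) and Mt4 (-2.81), VEGF against PDGF for Mt1 (-2.19), Mt2 (-1.94) and Mt4 (1.01), or the PDGF effect between times for Mt1 (1.21). It newly passed for Mt2 with IL-22-Fc against VEGF at day 7 (0.74), for Mt4 in the same pair at 24 h (-1.62) and for Mt3 in 24 h controls against untreated skin (0.38). Signs turned at 24 h for Mt2 with VEGF (0.0068) and with PDGF (0.029), Mt3 with PDGF (0.014) and, between treatments, Mt3 in IL-22-Fc against PDGF (-0.10) and Mt2 in VEGF against PDGF (-0.022).

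Mt2 with PDGF at day 7 passed after dropping the 50% of probe sets of lowest interquartile range and with all 42 arrays (0.73 in both). It also passed with only the groups compared and by Student's t-test (0.73 in both), and with array weights (0.69). Its PDGF effect between times passed with the variance filter (0.76) and weights (0.72). Mt3 with PDGF at day 7 did not pass with all 42 arrays or with the 1.5-fold rule (0.36 in both). Mt3 in 24 h controls against untreated skin passed after centring (0.37), quantile normalization (0.36), the variance filter (0.34) and weights (0.36). Mt1 with IL-22-Fc at day 7 passed with only the groups compared (0.41). Mt4 with PDGF at 24 h passed with weights (-1.39).

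For IL-22-Fc against VEGF at day 7, Mt1 did not pass with quantile normalization (0.58), or with a trended robust variance or only the groups compared (0.71 in both), while Mt2 passed with the variance filter and with all 42 arrays (0.68 in both) and with weights (0.75). At 24 h Mt4 passed in that pair with the variance filter and with only the groups compared (-1.46 in both) and with weights (-1.40). For IL-22-Fc against PDGF at day 7, Mt3 did not pass with quantile normalization (-0.31), weights (-0.26), or a trended variance, all 42 arrays, only the groups compared or the 1.5-fold rule (-0.31 in each), and Mt1 passed with only the groups compared (-0.50). For VEGF against PDGF at day 7, Mt4 did not pass with weights (1.06) or a trended variance (1.28). At 24 h signs turned for IL-22-Fc against PDGF in Mt3 after centring (-0.0021), quantile normalization (-0.012) and weights (-0.026) and in Mt1 after quantile normalization (0.026), and for VEGF against PDGF in Mt2 after centring (-0.022).

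Leaving out 1 array at a time kept 736 values as they were, while 11 newly passed, 18 no longer passed and 11 turned sign. Against the control, ranges that crossed the threshold or 0 were -0.60 to -0.15 for Mt1 and -0.61 to -0.10 for Mt2 with VEGF at day 7, 0.85 to 0.98 for Mt1 and 0.28 to 0.42 for Mt3 with PDGF at day 7, -0.015 to 0.090 for Mt3 with IL-22-Fc at day 7, and, at 24 h, -0.043 to 0.0012 for Mt2 with VEGF, -0.059 to 0.011 for Mt2 with PDGF and -1.57 to -0.88 for Mt4 with PDGF. In control wounds Mt3 ran from 0.26 to 0.40 (24 h against untreated skin) and from -0.49 to -0.39 (day 7 against 24 h). Between treatments at day 7 they were 0.57 to 1.01 for Mt1 and 0.53 to 1.03 for Mt2 (IL-22-Fc against VEGF), -0.37 to -0.23 for Mt3 (IL-22-Fc against PDGF), and -0.30 to -0.14 for Mt3 and 0.74 to 1.60 for Mt4 (VEGF against PDGF). At 24 h they were -1.62 to -1.27 for Mt4 (IL-22-Fc against VEGF), -0.12 to 0.067 for Mt1 and -0.095 to 0.17 for Mt3 (IL-22-Fc against PDGF), and -0.027 to 0.037 for Mt2 (VEGF against PDGF). Effects between times ran from -0.59 to -0.090 for Mt2 with VEGF and from 0.41 to 0.63 for Mt3 with PDGF.

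No paired analysis was possible because the replicate numbers are running numbers within a group and name no shared animal, litter or day. Only 3 PDGF arrays at day 7 and 1 probe set per gene limit what can be seen.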
